A study of Mus musculus with 6 samples.

Results

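The genes described here encode the heavy and light chains of antibodies. They were taken by symbol from the deposited tables: every row whose symbol starts with Ighv, Igkv or Iglv, and the constant region genes Ighm, Ighd, Ighe, Igha, the Ighg genes, Igkc and the Iglc genes. This gave 188 genes with a count, of 33296 genes with a count in all. By class these were 8 heavy chain constant genes, 84 heavy chain variable segments (Ighv), the 1 kappa constant gene, 89 kappa variable segments (Igkv), 3 lambda constant genes and 3 lambda variable segments (Iglv). Another 173 genes fit the same symbol pattern in the annotation, 361 in all, and had no count in any library. Of the 188, 11 are annotated as pseudogenes.

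The libraries come from liver tumours in 6 male C3H mice. All 6 had received, at 6 to 8 weeks of age, 1000000 cells of a single mouse hepatocellular carcinoma line, HCA-1, below the capsule of the liver. The 3 Control mice were untreated, and the labels do not say whether they received an empty carrier. The 3 TSDP mice were given, by vein, nanoparticles with 2 cargoes, DNIC (which releases nitric oxide) and sorafenib (which inhibits kinases), in 6 injections from day 10 to day 23, and tumours were taken on day 24. Libraries are named by the numbers in their titles: Control 3, 4 and 5 and TSDP 1, 2 and 5. Total counts ranged from 32130808 to 38953397. In such bulk samples, fewer cells of a type and less RNA per cell cannot be told apart.

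An antibody is built of paired heavy and light chains. Each B cell joins 1 heavy chain V segment to D and J segments, and 1 kappa or lambda V segment to a J segment, so that a clone of cells carries a single V segment per chain. The first heavy chain constant gene used is Ighm (IgM), expressed with Ighd (IgD) on resting B cells, and class switching replaces it with an Ighg, Ighe or Igha gene. Plasma cells, the secreting end stage, fill much of their mRNA with immunoglobulin transcripts, so that few cells can supply many reads. In mice most light chains are kappa.

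Several of the segments that carry the results are close relatives, which bears on how reads of 1 segment can be told from those of another. The sequences are the last coding exon of the variable segments and the coding exon of the lambda constant genes, cut to their first 300 bases where longer, from GENCODE M21 (build GRCm38), 5′ to 3′ on the coding strand, with capitals at bases that differ from, or have no partner in, the relative named. Ighv1-82 (chr12:115952543-115952842, minus strand), the most counted heavy segment, is 96.07% identical to Ighv1-80, and its capitals mark the differences from it.
Ighv1-82: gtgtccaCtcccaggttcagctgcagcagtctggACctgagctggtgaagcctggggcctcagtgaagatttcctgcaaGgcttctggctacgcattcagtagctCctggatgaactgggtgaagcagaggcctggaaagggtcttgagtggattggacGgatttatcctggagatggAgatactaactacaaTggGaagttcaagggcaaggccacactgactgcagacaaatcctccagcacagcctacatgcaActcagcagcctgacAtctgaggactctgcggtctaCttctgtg
Igkv6-23 (chr6:70260409-70260706, minus strand) and Igkv6-25 (chr6:70215660-70215957, plus strand), both among the 3 kappa segments with most reads, are 93.71% identical, with the capitals in each marking differences from the other.
Igkv6-23: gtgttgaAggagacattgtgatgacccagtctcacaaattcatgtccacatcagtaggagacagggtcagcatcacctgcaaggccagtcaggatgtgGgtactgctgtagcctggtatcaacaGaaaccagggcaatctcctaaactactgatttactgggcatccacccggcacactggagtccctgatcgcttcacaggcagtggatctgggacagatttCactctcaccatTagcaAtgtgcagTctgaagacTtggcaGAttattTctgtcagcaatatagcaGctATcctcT
Igkv6-25: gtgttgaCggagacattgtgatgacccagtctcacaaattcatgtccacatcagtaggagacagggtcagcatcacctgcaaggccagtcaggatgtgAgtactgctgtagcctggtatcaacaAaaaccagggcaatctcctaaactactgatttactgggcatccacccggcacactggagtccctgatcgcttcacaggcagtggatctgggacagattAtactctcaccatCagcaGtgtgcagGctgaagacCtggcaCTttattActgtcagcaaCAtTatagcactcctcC
Igkv4-86 (chr6:68910411-68910704, minus strand), which was counted almost only in 1 library, is 89.18% identical to Igkv4-59, its nearest relative and the segment the capitals refer to.
Igkv4-86: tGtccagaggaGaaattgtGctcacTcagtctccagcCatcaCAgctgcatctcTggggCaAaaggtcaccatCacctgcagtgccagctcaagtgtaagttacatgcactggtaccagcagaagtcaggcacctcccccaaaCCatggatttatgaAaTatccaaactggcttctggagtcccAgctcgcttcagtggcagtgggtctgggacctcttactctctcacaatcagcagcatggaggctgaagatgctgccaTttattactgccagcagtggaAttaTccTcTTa
The lambda constant genes Iglc1 (chr16:19061772-19062071, minus strand) and Iglc2 (chr16:19198554-19198853, minus strand) are 74.55% identical to each other.
Iglc1: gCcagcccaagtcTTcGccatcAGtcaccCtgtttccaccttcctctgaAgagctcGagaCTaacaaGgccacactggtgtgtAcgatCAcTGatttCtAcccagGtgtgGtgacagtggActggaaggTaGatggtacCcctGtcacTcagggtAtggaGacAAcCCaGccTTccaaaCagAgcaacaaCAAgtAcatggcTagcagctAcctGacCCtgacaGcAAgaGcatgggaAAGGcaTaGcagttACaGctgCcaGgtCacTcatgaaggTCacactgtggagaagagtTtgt
Iglc2: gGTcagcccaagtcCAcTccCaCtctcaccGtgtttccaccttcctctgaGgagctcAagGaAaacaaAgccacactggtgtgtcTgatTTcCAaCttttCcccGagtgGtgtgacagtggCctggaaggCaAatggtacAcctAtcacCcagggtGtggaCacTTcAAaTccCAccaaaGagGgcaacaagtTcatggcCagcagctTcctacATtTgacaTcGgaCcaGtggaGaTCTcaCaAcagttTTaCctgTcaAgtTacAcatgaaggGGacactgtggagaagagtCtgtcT
Iglc2 is 96.19% identical to Iglc3. Of the windows of 50 bases in the Iglc1 transcript 0% occurred in a transcript of another gene, against 10.51% for Iglc2. For the variable segments that share was 14.84% for Ighv1-82, 19.76% for Igkv4-86, 35.62% for Igkv6-23 and 45.62% for Igkv6-25. Among the members, 46 of 84 heavy and 46 of 89 kappa segments were at least 95% identical to another annotated segment of their class, and they held 67.5% and 63.3% of the reads. Counts of such segments are uncertain, since reads can be split between them or left uncounted. The annotation describes the C57BL/6 genome, while the mice were C3H, and the effect of strain differences on the counts of single segments was not tested.

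Control 3 stood apart from the other libraries. The summed CPM (counts per 1000000, on library sizes scaled by TMM) of 8 hepatocyte markers was 85.8 there, compared to 16256 and 3003 in Control 4 and 5 or 25395, 48558 and 16255 in TSDP 1, 2 and 5. Its 4 haemoglobin genes summed to 627 CPM, against at most 47.2 elsewhere. The 5 markers of the HCA-1 line summed to between 943 and 1355 CPM in every library, with none at 0. Nearly all of that sum was Krt8 (431 to 647 CPM) and Krt18 (507 to 725 CPM). The other markers were low and less even, with Afp at 3.27 to 9.20, Gpc3 at 0.680 to 4.83 and Epcam at 0.432 to 13.5 CPM. Because Control 3 stood apart, log2 fold changes of the genes the results turn on are also given without Control 3.

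Immunoglobulin reads made up a larger part of the RNA in every TSDP tumour than in any Control tumour. They amounted to 292, 1985 and 2938 reads in Control 3, 4 and 5, against 5525, 27007 and 22572 reads in TSDP 1, 2 and 5. Per 1000000 counts this was 8.98, 61.8 and 75.4 in Control, with a mean of 48.7 ± 35.1 (SD, n = 3), and 151, 738 and 621 in TSDP, with a mean of 503 ± 311 (SD, n = 3). The ratio of the means was 10.3, and 7.33 without Control 3. TSDP 2 and TSDP 5 were high and close to each other, while TSDP 1 lay nearer to Control 5 than to them. All 6 classes had a higher mean in TSDP, with ratios from 8.35 for the heavy constant genes to 16.4 for the lambda constant genes.

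Single genes varied widely between tumours of 1 group, and 0 of the 188 passed the edgeR quasi-likelihood test after Benjamini-Hochberg adjustment over all 17423 genes tested, where 0% of genes were called. Only 41 members had enough reads to be tested. Of these, 27 reached the filter's minimum in every TSDP library and 5 in every Control library, and 22 did so in every TSDP but not in every Control library, so that many entered through the TSDP group and counts over the 41 carry that selection. At an unadjusted p under 0.05, edgeR had 26 members higher and 0 lower in TSDP, while 8.6% of all genes tested were higher. DESeq2 called 27 higher and 0 lower of the 69 members it gave an adjusted p, against 2.98% of all genes called higher, and limma voom called 0 (20 at an unadjusted p under 0.05). Without any filter, every TSDP library lay above every Control library for 44 of the 188 (23.4%), compared with 8.49% of all genes with a count. The same held for 45 without Control 3 (background 10.5%) and for 84 without TSDP 1 (background 10.9%). The reverse was true of 1 member, Igkv17-121, with 1, 1 and 11 reads in Control and 0, 1 and 0 in TSDP, beside 6.39% of all genes. Counts were low for much of the family: 72 members had fewer than 10 reads in all, 33 had none in any Control library and 14 none in any TSDP library. The 188 genes are not independent, since cells of the B lineage make them together.

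Among the constant genes, IgM, IgG3, IgG1 and IgA transcripts had no overlap between the groups. Ighm, the IgM gene, was counted at 2.66, 19.4 and 6.76 CPM in Control 3, 4 and 5, against 44.0, 67.3 and 67.7 CPM in TSDP 1, 2 and 5. Its 3 TSDP values sat close together, and the log2 fold change (TSDP over Control) was 2.63 ± 0.69 (SE), with an edgeR adjusted p of 0.326 and a DESeq2 adjusted p of 0.000747. Ighg3, which encodes an IgG subclass prominent in responses to polysaccharides, had 0, 0.153 and 0.273 CPM across the Control tumours, against 1.73, 7.25 and 2.79 CPM across the TSDP tumours. The highest Control value was well under the lowest TSDP value, for a log2 fold change of 4.70 ± 1.00 (SE; adjusted p of 0.326 by edgeR). Ighg1 had 1.55, 3.43 and 1.64 CPM across the Control tumours, against 10.1, 22.7 and 5.64 CPM across the TSDP tumours, a log2 fold change of 2.54 ± 0.60 (SE). Igha, the gene of the mucosal class IgA, had 0.124, 3.43 and 2.09 CPM across the Control tumours, against 6.55, 25.8 and 9.85 CPM across the TSDP tumours, a log2 fold change of 2.90 ± 1.04 (SE). The edgeR adjusted p was 0.326 for Ighg1 and 0.349 for Igha. DESeq2 adjusted p-values were 2.36e-06 for Ighg3, 0.000342 for Ighg1 and 0.180 for Igha. Without Control 3 the log2 fold changes were 2.18 for Ighm, 4.15 for Ighg3, 2.33 for Ighg1 and 2.34 for Igha. Without Control 4 that of Ighm was 3.65 and that of Igha 3.64. Without TSDP 2 they were 3.90 for Ighg3, 1.82 for Ighg1 and 2.1 for Igha, and without Control 5 the value of Ighg3 was 5.58.

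The IgG2 genes had the highest mean levels per kilobase of exon among the switched classes and overlapped between the groups. Ighg2c had 0.371, 2.55 and 7.83 CPM across the Control tumours, against 6.33, 93.6 and 85.4 CPM across the TSDP tumours, and Ighg2b followed the same order of libraries with 0.278, 3.53 and 9.27 CPM against 4.79, 76.0 and 51.2 CPM. For both genes TSDP 1 lay below Control 5, and TSDP 2 and TSDP 5 were far above it. The log2 fold changes were 4.10 ± 1.32 (SE) for Ighg2c and 3.33 ± 1.33 (SE) for Ighg2b, with adjusted p-values of 0.334 and 0.371 by edgeR and 0.0618 and 0.203 by DESeq2. Without Control 3 they were 3.55 and 2.76, and without Control 5 they were 5.37 and 4.49. The Ighg2b value was 2.66 without TSDP 2. The 2 genes are 87.98% identical over their coding bases. In several strains an allele named Ighg2a stands in the place of Ighg2c, and no row of that name is among the members. The annotation is of C57BL/6 and the mice were C3H. Reads of such an allele could be counted under Ighg2c or another Ighg gene, or left uncounted, which was not tested. Levels and shares of Ighg2c given here are those of its row in the count table. Ighd had 0.216, 1.10 and 0.572 CPM across the Control tumours, against 0.767, 3.41 and 1.17 CPM across the TSDP tumours, overlapping, with a log2 fold change of 1.49 ± 0.76 (SE; adjusted p of 0.439 by edgeR and 0.325 by DESeq2). It was 1.08 without Control 3, 2.14 without Control 4 and 0.60 without TSDP 2. Ighe, the IgE gene, had 15 reads over all 6 libraries and was not tested.

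**Figure D1:**
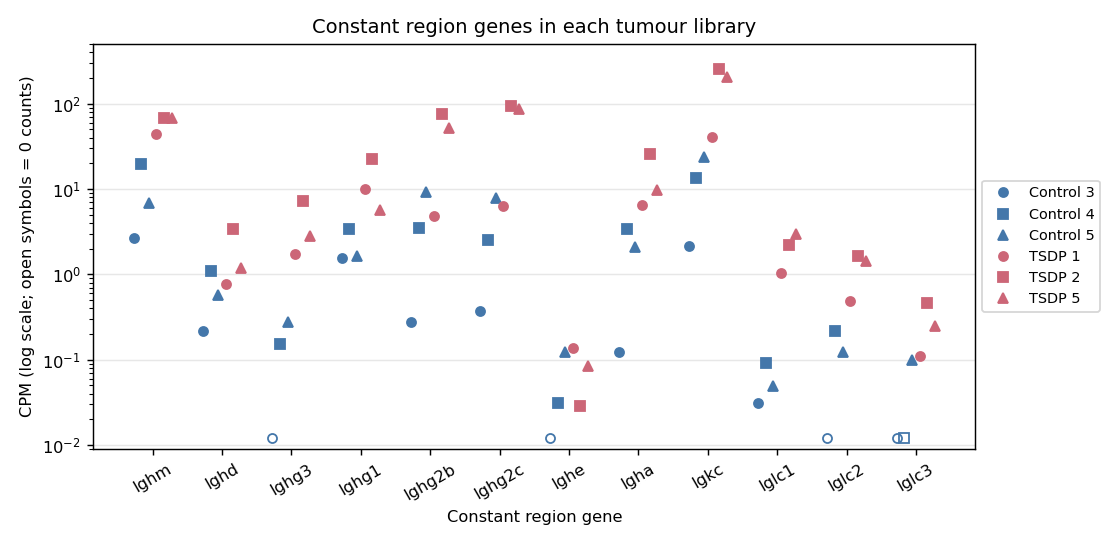
Counts per 1000000 (CPM) of the 12 constant region genes (log scale) in the 3 Control libraries (blue) and 3 TSDP libraries (red), with open symbols for libraries without a read. The TSDP symbols of Ighm, Ighg3, Ighg1, Igha, Igkc, Iglc1, Iglc2 and Iglc3 lie above all Control symbols of the same gene, while those of Ighd, Ighg2b, Ighg2c and Ighe overlap with them.

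The mix of isotypes did not divide along the lines of the groups. As a share of all heavy constant reads, Ighm held 51.2%, 57.7% and 23.7% in Control 3, 4 and 5, against 59.2%, 22.7% and 30.3% in TSDP 1, 2 and 5. Ighg2b and Ighg2c together held 12.5%, 18.0% and 59.9% in Control, against 14.95%, 57.3% and 61.01% in TSDP. Control 3, Control 4 and TSDP 1 were thus rich in IgM transcripts, and Control 5, TSDP 2 and TSDP 5 in those of IgG2. Counting error is small beside these gaps: the Wilson 95% interval of the IgG2 share ran from 8.32% to 18.4% in Control 3, where 168 heavy constant reads were counted, and from 57.0% to 62.7% in Control 5, with 1149. All class-switched genes together made up 52.7% ± 19.0 (SD, n = 3) of reads in Control against 61.7% ± 19.3 (SD, n = 3) in TSDP, a difference smaller than the spread within either group. Without Control 3 the Control mean was 56.7% ± 25 (SD, n = 2). The IgG2 means were 30.1% ± 25.9 and 44.4% ± 25.6 (SD, n = 3 each). Their difference of 14.3 percentage points came to 5.45 without Control 3, 8.22 without Control 4, 29.1 without Control 5, 29.0 without TSDP 1, 7.84 without TSDP 2 and 5.97 without TSDP 5. Per kilobase of annotated exon, Ighg2c led the heavy genes in Control 5, TSDP 2 and TSDP 5, and Ighm in the other 3 libraries. Ighg2c held 39.7%, 44.7% and 50.7% of the length-scaled heavy signal in Control 5, TSDP 2 and TSDP 5. That ranking depends on annotated exon length, 1326 bases for Ighg2c and 2678 for Ighg2b, while their coding bases compared number 1211 and 1214. In Control 5 Ighg2b had more reads than Ighg2c (373 against 315), whereas Ighg2c had more in TSDP 2 (3240 against 2629) and TSDP 5 (3060 against 1834).

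Within the isotypes, 2 minor genes of the 8 had shares whose values did not overlap between the groups, though their counting intervals did. Ighd held 4.17%, 3.28% and 2.0% of heavy constant reads in Control and 1.03%, 1.15% and 0.524% in TSDP, all 3 TSDP libraries being lower. IgM reads outnumbered IgD reads by 12.3, 17.6 and 11.8 to 1 in Control, against 57.4, 19.7 and 57.8 to 1 in TSDP. Ighg3 held 0%, 0.455% and 0.957% in Control, against 2.32%, 2.45% and 1.25% in TSDP, all 3 TSDP libraries being higher. Both orders held among the other 5 libraries when Control 3 was left out. These rest on few reads in Control: 7, 36 and 23 for Ighd and 0, 5 and 11 for Ighg3. In Control 3 the Wilson 95% interval of the Ighd share ran from 2.03% to 8.35%, and that of Ighg3 allowed up to 2.24%, above the TSDP 5 value. Intervals also overlapped without Control 3. For Ighd they ran from 1.34% to 2.99% in Control 5 and from 0.714% to 1.49% in TSDP 1. For Ighg3 they ran from 0.535% to 1.71% in Control 5 and from 1.03% to 1.51% in TSDP 5. The ratio of Ighg2c to Ighg1 reads spanned 0.24 to 4.77 in Control and 0.629 to 15.1 in TSDP.

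**Figure D2:**
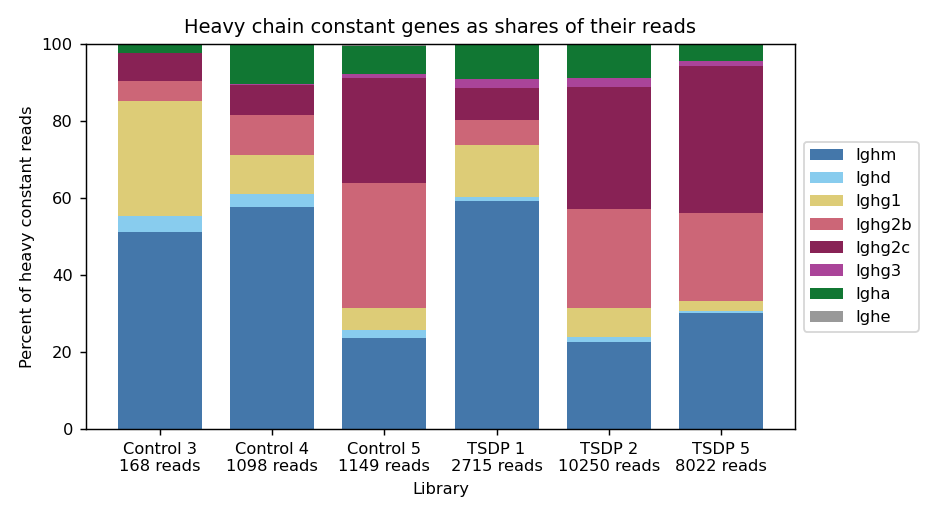
Share of heavy chain constant reads, in percent, held by each of 8 isotype genes in the 6 libraries, with the number of reads under each bar. IgG2 genes (Ighg2b and Ighg2c) take most of the bar in Control 5, TSDP 2 and TSDP 5 (57.3% to 61.01%), and Ighm does so in Control 3, Control 4 and TSDP 1 (51.2% to 59.2%).

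Kappa dominated the light chains in all 6 tumours, and both light chain classes were higher in TSDP. Igkc, the kappa constant gene, had 2.13, 13.4 and 23.4 CPM across the Control tumours, against 40.4, 252 and 205 CPM across the TSDP tumours. TSDP 1 was nearest to the Control values, and the other 2 TSDP libraries stood far above them. The log2 fold change was 3.67 ± 1.02 (SE), with an edgeR adjusted p of 0.326 and a DESeq2 adjusted p of 0.0254. The log2 fold change was 3.16 without Control 3 and 4.38 without Control 5. Per kilobase of exon the mean level of Igkc was 24.4 CPM in Control and 311 CPM in TSDP, against 5.10 and 31.7 for Ighm.

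The lambda genes were scarce. Iglc1 had 1, 3 and 2 reads in Control and 38, 76 and 105 reads in TSDP, or 0.0309, 0.0920 and 0.0497 CPM against 1.04, 2.20 and 2.93 CPM. The Control counts are at or under 3 reads, 6 in all against 219, a ratio per count of 34.5 with an exact 95% interval of 15.6 to 95.1 for counting error alone. The log2 fold change was 5.08 ± 0.60 (SE; adjusted p of 0.326 by edgeR). Its unadjusted p, 0.00011, was the smallest among the members. Iglc2 had 0, 0.215 and 0.124 CPM across the Control tumours, against 0.493, 1.65 and 1.42 CPM across the TSDP tumours, a log2 fold change of 3.35 ± 0.88 (SE). Iglc3 had 33 reads in all, with 0, 0 and 4 in Control, against 4, 16 and 9 in TSDP. The variable segment Iglv1 had 0.0309, 0.491 and 0.348 CPM across the Control tumours, against 0.794, 5.55 and 3.85 CPM across the TSDP tumours, a log2 fold change of 3.53 ± 0.99 (SE; adjusted p of 0.326 by edgeR). Without Control 3 the log2 fold changes were 4.81 for Iglc1, 2.79 for Iglc2 and 3.0 for Iglv1, and without Control 4 that of Iglc2 was 4.08. Iglv2 and Iglv3, with 20 and 38 reads, were too low to test.

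The lambda share overlapped between the groups, and its mean differed by less than the SD of the TSDP libraries. Of light chain constant reads, lambda held 1.43%, 2.24% and 1.15% in Control, against 3.91%, 1.68% and 2.20% in TSDP, with means of 1.61% ± 0.566 and 2.60% ± 1.17 (SD, n = 3 each). TSDP 1 was the one high library, with a Wilson 95% interval of 3.05% to 5.0%. Without it the difference of 0.989 percentage points came to 0.332, and without Control 3 to 0.899. Control 3 had 1 lambda read of 70, which allows from 0.253% to 7.66%. Counted on variable segments, the lambda share was 4.13% ± 1.70 (SD, n = 3) in Control against 4.03% ± 0.737 (SD, n = 3) in TSDP, a difference of the opposite sign. Light chain constant reads per heavy constant read numbered 0.417, 0.406 and 0.829 in Control, against 0.565, 0.866 and 0.934 in TSDP, so that the 3 libraries rich in IgG2 also had most light chain reads per heavy chain read.

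Variable segments were counted from 6, 43 and 53 different Ighv genes in Control 3, 4 and 5, against 42, 63 and 55 in TSDP 1, 2 and 5. Depth differed between them: Control yielded 20, 128 and 242 Ighv reads and TSDP 463, 2447 and 2456. When each library was brought to 128 reads by closed-form rarefaction, which leaves out Control 3, the expected number of Ighv segments was 43.0 and 41.7 in Control 4 and 5, against 27.8, 23.9 and 18.6 in TSDP. Both Control libraries then held more segments than any TSDP library. For Igkv, 17, 49 and 66 segments had a read in Control and 54, 80 and 62 in TSDP, from 33, 294 and 574 reads and 774, 5219 and 4445 reads. At 294 reads the expected number was 49.0 and 57.0 in Control 4 and 5, against 40.3, 40.7 and 37.3 in TSDP. Down at the 33 reads of Control 3, where all 6 libraries can be compared, it was 17.0, 20.1 and 21.6 in Control, against 16.4, 14.7 and 14.2 in TSDP. These values did not overlap, but the 17.0 of Control 3 is its observed count and lay close to the 16.4 of TSDP 1. No interval is given for them. The 20 Ighv reads of Control 3 gave 6 segments, fewer than the 7.10 to 10.1 expected in TSDP at that number, so for Ighv the order held for Control 4 and 5 and not for Control 3.

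The effective number of segments is the exponential of the Shannon entropy, which counts how many equally used segments would give the same evenness. This number was computed on all reads of each library, not at equal depth. For Ighv it was 4.06, 24.9 and 29.0 in Control, against 14.3, 8.71 and 6.75 in TSDP, and for Igkv 14.0, 31.1 and 39.6 in Control, against 22.2, 18.5 and 16.4 in TSDP. Control 4 and 5 exceeded all TSDP libraries for both chains, as they did at equal reads. Control 3, with few reads, was the lowest of all, whereas at 33 Igkv reads it was not. The group means below include Control 3 unless stated, so they mix depth with evenness. The difference in group means for Ighv was -9.41, and -17.0 without Control 3, -4.55 without Control 5 and -2.90 when the most counted segment of each library was left out. For Igkv it was -9.22, and -16.3 without Control 3, -3.55 without Control 5 and -7.11 without the most counted segment. The size of the difference thus depended on which Control libraries entered, while its sign was the same in each of these settings.

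**Figure D3:**
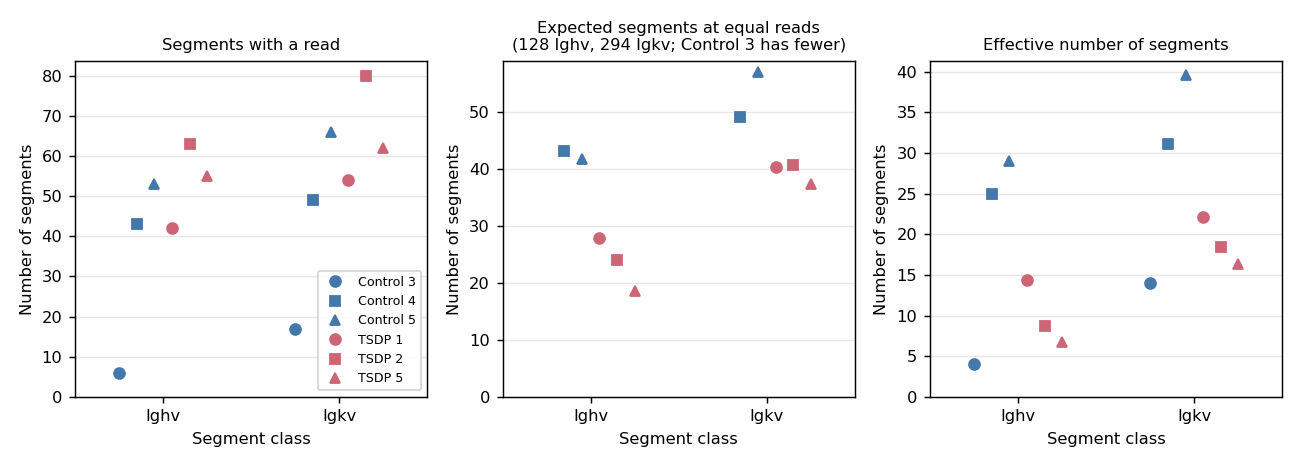
Number of Ighv and Igkv segments in each library: with at least 1 read (left), expected when libraries are reduced to equal reads (128 for Ighv and 294 for Igkv, without Control 3, middle) and as the effective number (right). Blue Control 4 and Control 5 symbols lie above all red TSDP symbols in the middle and right panels, but not in the left one.

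A few heavy chain segments made up most Ighv reads in TSDP 2 and TSDP 5. Ighv1-82, which lies 2.53 Mb from Ighm at the far end of the locus, had 6, 18 and 45 reads in Control and 140, 1291 and 1345 reads in TSDP. It held 30%, 14.1% and 18.6% of Ighv reads in Control and 30.2%, 52.8% and 54.8% in TSDP, so that it was the leading or next segment in all 6 tumours. At 0.185, 0.552 and 1.12 CPM against 3.83, 37.3 and 37.5 CPM, its log2 fold change was 5.37 ± 1.07 (SE; adjusted p of 0.326 by edgeR), with 4.94 without Control 3 and 6.12 without Control 5. Its nearest relative Ighv1-80 had 124 reads over all libraries, and Ighv1-81 had 152, of which 140 were in TSDP 5. Ighv3-6 had 9, 1 and 6 reads in Control and 6, 244 and 303 in TSDP, overlapping, with a log2 fold change of 5.07 ± 1.43 (SE; adjusted p of 0.326 by edgeR). Its 9 reads were the most of any Ighv segment in Control 3, without which its log2 fold change was 5.73. Ighv5-17 had 0, 4 and 3 reads in Control and 19, 113 and 113 in TSDP, and Ighv3-4 had 0, 1 and 0 against 3, 71 and 108. The log2 fold change of Ighv5-17 was 5.05 ± 1.04 (SE; adjusted p of 0.326 by edgeR), with 4.51 without Control 3 and 5.72 without Control 4. For all of Ighv1-82, Ighv3-6, Ighv5-17 and Ighv3-4, TSDP 2 and TSDP 5 were high and near each other.

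Other heavy segments were led by other tumours. Ighv14-4 had 85 reads in TSDP 1, 18.4% of its Ighv reads, against 21 and 3 reads in TSDP 2 and 5 and 0, 1 and 11 in Control. Ighv7-1 led in Control 4, with 19 of 128 reads. Ighv6-6 was even across the treated tumours, at 0.685, 0.520 and 0.474 CPM in TSDP and 0, 0.0613 and 0.0746 CPM in Control, a log2 fold change of 3.48 ± 0.64 (SE; adjusted p of 0.326 by edgeR). Ighv2-9-1 had 0, 10 and 7 reads in Control and 8, 85 and 71 in TSDP, a log2 fold change of 3.24 ± 1.15 (SE; adjusted p of 0.349 by edgeR). Without Control 3 these log2 fold changes were 2.95 for Ighv6-6 and 2.68 for Ighv2-9-1, and without Control 4 that of Ighv2-9-1 was 4.01. By family, the 41 Ighv1 members held 63.0% of all Ighv reads, with 40.0%, 41.4% and 57.0% in Control, against 47.9%, 63.1% and 67.5% in TSDP. TSDP 2 and TSDP 5 shared 6 of their 10 most counted Ighv segments, and the other pairs among Control 4, Control 5 and the TSDP libraries 2 to 5. Control 3, with reads from 6 segments, was left out of this count. The tenth segment had only 3 reads in Control 4, 7 in Control 5 and 9 in TSDP 1, against 31 and 26 in TSDP 2 and 5. Sharing between pairs is therefore not comparable at equal depth.

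Kappa segments also differed from tumour to tumour. Igkv6-23 had 1, 8 and 56 reads in Control and 70, 848 and 1108 in TSDP, and led in Control 5 and TSDP 5, where it held 9.76% and 24.9% of Igkv reads. Its log2 fold change was 5.05 ± 1.41 (SE; adjusted p of 0.326 by edgeR), with TSDP 1 only slightly above Control 5 at 1.92 and 1.39 CPM. It was 4.49 without Control 3 and 7.05 without Control 5. Igkv4-86 had 1202 reads in TSDP 2, where it was the leading segment with 23.0% of Igkv reads, 10 in TSDP 5 and 0 in the other 4 libraries. That single tumour held 99.2% of its summed CPM, and the segment was not tested. Igkv6-25 had 5, 0 and 9 reads in Control and 61, 184 and 885 in TSDP, with a log2 fold change of 6.31 ± 1.37 (SE; adjusted p of 0.326 by edgeR), and 77.0% of its summed CPM lay in TSDP 5. Without TSDP 5 the value was 4.71, without Control 3 it was 6.40 and without Control 5 it was 7.04. The leading kappa segment of TSDP 1 was Igkv9-120, with 130 of 774 reads, and that of Control 4 was Igkv15-103, with 31 of 294.

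Igkv4-72 stayed near 0 in all Control tumours, with 2, 2 and 3 reads, and had 34, 111 and 267 reads in TSDP. This gave the smallest unadjusted p of the tested variable segments, 0.000602, with a log2 fold change of 5.79 ± 0.92 (SE; adjusted p of 0.326 by edgeR). Igkv3-7 had 0, 7 and 10 reads in Control and 55, 476 and 203 in TSDP, without overlap, a log2 fold change of 5.43 ± 1.16 (SE). Igkv3-4 did not overlap either but came mostly from TSDP 2, with 470 of its 573 reads, a log2 fold change of 4.16 ± 1.5 (SE; adjusted p of 0.352 by edgeR) that was 1.78 without TSDP 2. Without Control 3 the log2 fold changes were 5.73 for Igkv4-72, 4.87 for Igkv3-7 and 3.59 for Igkv3-4. That of Igkv4-72 was 4.89 without TSDP 5, and that of Igkv3-7 was 4.46 without TSDP 2. Igkv4-59 and Igkv12-44 overlapped between the groups and were highest in TSDP 5, with 272 and 219 reads there. Of 56 variable segments with at least 50 reads, 9 had over 80% of their summed CPM in 1 library, 5 of them in TSDP 2 and 4 in TSDP 5. The highest value of a segment was in TSDP 2 for 29 of the 56, in TSDP 5 for 20, in TSDP 1 for 5 and in Control 5 for 2. Any pair among Control 4, Control 5 and the TSDP libraries shared 1 to 4 of their 10 most counted Igkv segments. The tenth of these had 9 reads in Control 4, 18 in Control 5 and 23 in TSDP 1, against 118 and 82 in TSDP 2 and 5.

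**Figure D4:**
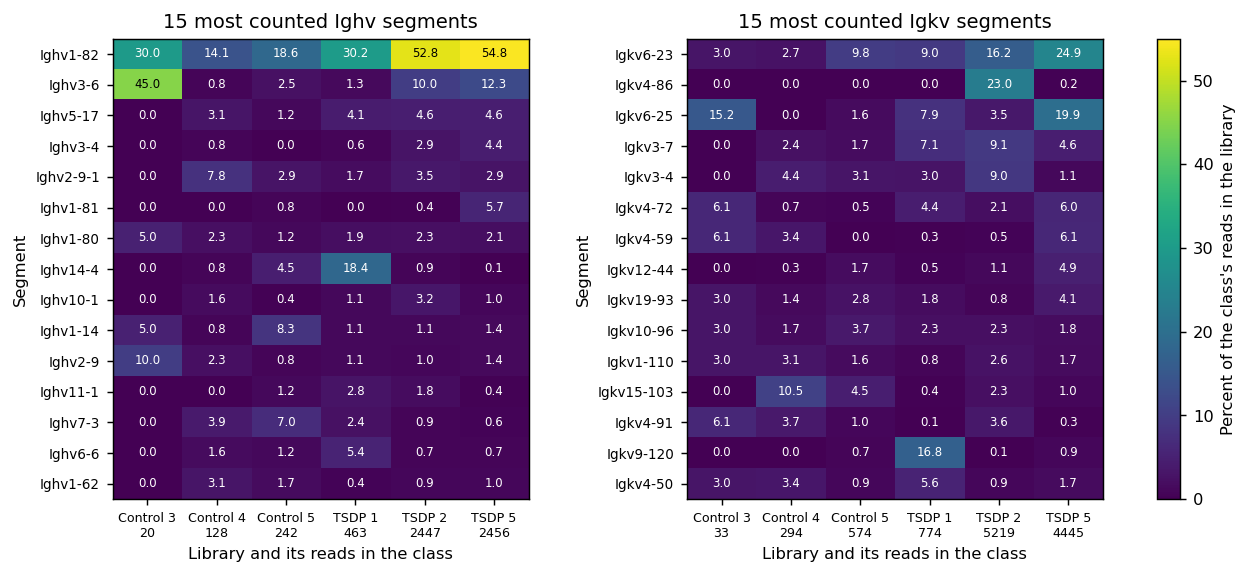
Share of Ighv (left) and Igkv (right) reads, in percent, held by the 15 segments of each class with the most reads over all libraries, in rows, with the 6 libraries and their reads in columns. Ighv1-82 is bright in both TSDP 2 and TSDP 5 (52.8% and 54.8%), whereas Igkv4-86 is bright in TSDP 2 (23.0%) and dark in the other 5 libraries.

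Genes that work with immunoglobulin chains were taken from a list of 32 B lineage and antibody transport genes. Of these 31 had a count, 20 could be tested and 0 passed the edgeR test. At an unadjusted edgeR p under 0.05, 5 were higher and 0 lower, while 8.6% of all genes tested were higher. The median log2 fold change was 0.49, beside -0.02 over all genes tested. Jchain, which links IgM and IgA into polymers and is made by plasma cells, had 0.556, 2.91 and 4.35 CPM across the Control tumours, against 10.7, 57.0 and 39.2 CPM across the TSDP tumours. The order of the 6 libraries was that of Igkc, with a log2 fold change of 3.77 ± 0.89 (SE; adjusted p of 0.326 by edgeR). The value was 3.28 without Control 3. Jchain was the 1 listed gene that DESeq2 called (adjusted p = 0.00678). DESeq2 gave 23 of the listed genes an adjusted p, and it called 2.98% of all genes higher. Igkc reads per Jchain read numbered 3.83, 4.59 and 5.38 in Control, against 3.76, 4.42 and 5.21 in TSDP, a narrow range over tumours whose Igkc levels spanned 2.13 to 252 CPM.

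Genes of the B cell receptor complex differed less, in log2 fold change, than Igkc did. Cd79a, a signalling chain of the receptor, had 0.340, 0.307 and 0.472 CPM across the Control tumours, against 0.959, 1.59 and 0.781 CPM across the TSDP tumours, without overlap and with a log2 fold change of 1.56 ± 0.38 (SE; adjusted p of 0.326 by edgeR). Its partner Cd79b had 0.0927, 0.552 and 0.273 CPM across the Control tumours, against 0.548, 1.33 and 0.753 CPM across the TSDP tumours, a log2 fold change of 1.51 ± 0.64 (SE). Without Control 3 these log2 fold changes were 1.48 for Cd79a and 1.08 for Cd79b, and that of Cd79b was 2.20 without Control 4. Igkc reads per Cd79a read were 6.27, 43.6 and 49.6 in Control, against 42.1, 159 and 262 in TSDP, where TSDP 1 lay among the Control values. Mzb1, a chaperone of antibody secreting cells, had 44 reads in all and was not tested. Xbp1 and Fcgr2b, which many cell types express, had log2 fold changes of 0.08 ± 0.22 and 0.15 ± 0.21 (SE), and Fcgrt, the receptor that protects IgG from breakdown, 0.61 ± 0.31 (SE).

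Pigr, the receptor that carries polymeric IgA and IgM across epithelia, had 0.587, 171 and 26.2 CPM across the Control tumours, against 224, 564 and 198 CPM across the TSDP tumours, a log2 fold change of 2.32 ± 1.53 (SE; adjusted p of 0.526 by edgeR), and of 1.73 without Control 3, 4.61 without Control 4 and 1.66 without TSDP 2. It was lowest in Control 3 and highest in TSDP 2, as the hepatocyte markers were. Of those 8 markers, 5 had all TSDP libraries above all Control libraries, beside 8.49% of all genes with a count. Of the 8 B cell markers 5 did so, with summed levels of 4.42 to 8.59 CPM in Control and 11.6 to 20.7 CPM in TSDP and none at 0 in any library. Cd22 led that sum, with 3.31 to 6.36 CPM in Control and 8.34 to 11.8 CPM in TSDP. The summed plasma cell list, of 8 genes and led by Sdc1 (299 to 576 CPM) and Xbp1 (158 to 253 CPM), which other cell types also express, spanned 469 to 784 CPM in Control and 586 to 755 CPM in TSDP, with 3 of 8 genes above and Tnfrsf17 at 0 in Control 3 and Control 5. The 6 T cell markers summed to 15.8, 50.8 and 36.2 CPM across the Control tumours, against 55.3, 60.7 and 48.3 CPM across the TSDP tumours, so that TSDP 5 lay below Control 4. None of the hepatocyte or B cell markers passed the edgeR test, and the summed hepatocyte level of TSDP 5 was no higher than that of Control 4. The part of these cell types in the immunoglobulin differences was not tested. With hepatocyte and mitochondrial genes taken out of the total, the mean log2 difference in immunoglobulin share was 3.61, against 3.56 with them. That step changes only the total by which immunoglobulin reads are divided, so it cannot show which cells or tissue supplied those reads.

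**Figure D5:**
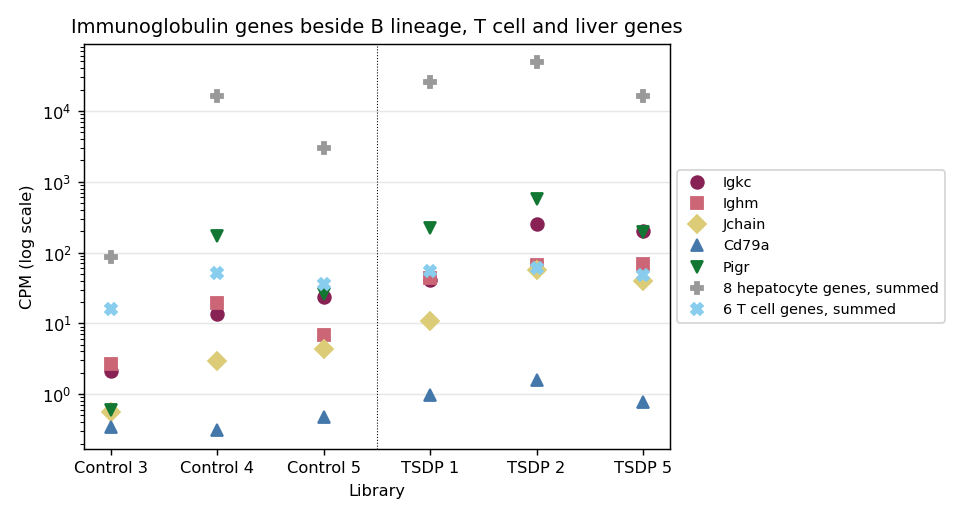
Counts per 1000000 (CPM, log scale) of Igkc, Ighm, Jchain, Cd79a and Pigr and the summed levels of 8 hepatocyte and 6 T cell markers in the 6 libraries. Igkc and Jchain keep a near constant distance (3.76 to 5.38 Igkc reads per Jchain read), while the distance between Igkc and Cd79a changes.

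Over all genes tested that are not immunoglobulins, those whose log2 CPM was most like that of Igkc across the 6 libraries were Jchain (Pearson r = 0.997), Mest (0.985), Aldh3a2 (0.984), Prdm1 (0.982) and Inmt (0.978). These values are a description over 6 libraries that fall in 2 groups and differ in their content of liver RNA, and they are the highest among the genes tested. Of these, Inmt had 0.0618, 0.399 and 0.621 CPM across the Control tumours, against 2.88, 9.28 and 5.61 CPM across the TSDP tumours. Its adjusted p was 0.326 by edgeR and 7.47e-07 by DESeq2. Prdm1, which drives plasma cell formation, had 9.76, 11.3 and 12.8 CPM in Control, against 13.8, 15.3 and 15.2 CPM in TSDP. Its log2 fold change was 0.38 ± 0.15 (SE; adjusted p of 0.369 by edgeR). Those of Mest and Aldh3a2 were 0.38 ± 0.14 and 0.27 ± 0.10 (SE; adjusted p of 0.349 and 0.365 by edgeR). Which cells supplied the reads of these genes was not tested.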

How the data were processed

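The authors deposited whole read counts per Ensembl gene for 6 tumour libraries, not normalized, and a second table whose deposited normalized signal equals each count divided by 1 constant per library, and which supplied the symbols. The tools featureCounts 2.0.0, HISAT2 2.1.0 and Trimmomatic 0.38 are named, beside FastQC, MultiQC and CASAVA, in the submitters' processing notes. Build, annotation and strandedness were not given in the sources used here. Reads of antisense or overlapping genes cannot be told apart. The 55536 gene IDs equal those of GENCODE M21 (GRCm38), which gave coordinates, exon lengths and sequences.

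Groups came from sample titles. No label names a batch or says that replicates were independent, and p-values reflect only how much these samples spread. Total counts were 32533852, 32130808 and 38953397 (Control 3, 4, 5) and 36629665, 36586150 and 36376925 (TSDP 1, 2, 5), and 3 counts corresponded to 0.0746 to 0.0927 CPM. No pair of libraries agreed within sampling noise (lowest chi-square per gene 47.7).

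All genes were fitted once with edgeR 4.0.16 (R 4.3.3): TMM, filterByExpr (minimum count 10), glmQLFit, glmQLFTest, and Benjamini-Hochberg adjustment over 17423 genes at 0.05. SE is the absolute log2 fold change over the root of F. DESeq2 1.42.0 and limma 3.58.1 (voom), other scaling, other filters and leaving out each library were alternatives. The steps were tested on simulated data. Shares, isotype mixes and diversity were described per library, with Wilson 95% intervals that cover counting error only, and without a test, because 3 against 3 libraries cannot give an exact permutation p below 0.1. Gene counts do not separate membrane from secreted forms.

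The genes, the lists and the tests were chosen with earlier results of these data known. Named were the 12 constant genes, the 8 most counted Ighv and Igkv and all Iglv segments, any member past the threshold, and the 2 tested variable segments with the smallest p in each direction. Of the companion genes, the 4 with most counts, any past the threshold, and Cd79a, Cd79b, Jchain, Pigr and Mzb1 were named, with the 5 genes most like Igkc. Of the genes this rule took, 1 is not reported here. Leading segments of single libraries and Igkv17-121 were named after their values were seen.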

Additional observations from a re-analysis of the deposited data

How the results depend on the processing

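No paired analysis was possible because the groups share 1 replicate number only. The count of immunoglobulin genes past the threshold was 0 with edgeR under both scalings, all 3 filters and both quasi-likelihood methods, with limma voom and without each library. DESeq2 called 27, and 1 of the companion genes against 0 in each other setting, beside 2.98% of all genes called higher. Of the 30 named genes tested, 16 passed with DESeq2 and 0 in the other settings. Some of the 30 were named for a small p or for many reads, so this count carries that selection. Why the tools differ was not tested.

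The mean log2 difference in immunoglobulin share was 3.56, and 2.59 without Control 3 to 4.29 without TSDP 1. It was 3.62 with TMM sizes and 3.47 for constant genes alone. Immunoglobulin genes with all TSDP above all Control libraries numbered 44 (23.4%), and 45 to 84 (23.9% to 44.7%) with 1 library left out. Over all genes with a count the share was 8.49%, and 10.5% to 15.7% with 1 library left out. Leaving out a library makes such separation easier for every gene. The IgG2 difference (14.3 points) ranged from 5.45 to 29.1, was 15.4 among switched reads, and 16.2 per kilobase (chosen after seeing the data, as were the left-out counts of non-overlap and the switched mean without Control 3). The lambda difference (0.989 points) ranged from 0.332 to 1.45 and was -0.0932 on variable segments. Differences in the effective number of segments (TSDP minus Control) ranged, with 1 library left out, from -17.0 to -4.55 (Ighv) and from -16.3 to -3.55 (Igkv), and came to -2.90 and -7.11 without the most counted segment. The excess of segments with a read in TSDP was 19.3 for Ighv (5.33 to 28.8, and 14 at 10 reads or more) and 21.3 for Igkv (7.83 to 32.3, and 23.3). Log2 fold changes turned sign for Fcgr2b without Control 5 (-0.038, with 0.347 the highest) and for Xbp1 without Control 3 (-0.0738) and without TSDP 2 (-0.0681, with 0.292 the highest), and the cause was not tested. Depth limits the segment values of Control 3, which had 20 Ighv and 33 Igkv reads.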

Other observations

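The position of the Ighv segments along the heavy chain locus was read from the annotation. The distance to Ighm at which the summed Ighv reads reached their median was 0.865, 0.969 and 1.22 Mb in Control 3, 4 and 5 and 1.06, 2.53 and 2.53 Mb in TSDP 1, 2 and 5, while the median distance of the 84 segments was 1.19 Mb. The 2 large values are the position of Ighv1-82 itself. For Igkv the distance to Igkc was 1.03, 1.03 and 1.15 Mb in Control, against 1.15, 0.911 and 0.510 Mb in TSDP, and 0.510 Mb is that of Igkv6-25. The median distance of the 89 kappa segments was 1.31 Mb.

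Reads of heavy variable segments per heavy constant read numbered 0.119, 0.117 and 0.211 in Control, against 0.171, 0.239 and 0.306 in TSDP. The same ratio for kappa was 0.478, 0.674 and 0.609 in Control, against 0.525, 0.598 and 0.606 in TSDP. Pseudogenes took 160 reads, or 2.78%, of the heavy variable reads and 11 of the kappa variable reads. Dntt, the polymerase that adds bases at segment joins, had 0.0309, 0.245 and 0.423 CPM across the Control tumours, against 0.657, 1.47 and 0.642 CPM across the TSDP tumours, a log2 fold change of 1.94 ± 0.75 (SE; adjusted p of 0.367 by edgeR). Rag1 and Rag2, the recombinase genes, had 4 and 2 reads in all. All 3 were named after their values were seen.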
